A study of Mus musculus with 2 samples.

Results

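Bone and cartilage fibroblast-like (BCF-like) cells made up 1692 of the 4976 cells in 2 single-cell RNA libraries from mouse femurs and tibias. They were chosen by measured values. For every cell, the deposited log2 values of 6 sets of 3 marker genes were averaged, and a cell was kept when the mean of Fmod, Cilp and Angptl7 was strictly the highest of the 6. At least 2 of these 3 genes had to be above 0, and fewer than 3 of the 6 genes Tmem196, Clic5, Rab37, Scg5, Kcnc2 and Tspan15 could be above 0. The rule kept 822 of 2488 cells of the vehicle library (33.0%, exact 95% binomial interval 31.2 to 34.9) and 870 of 2488 cells of the doxorubicin library (35.0%, 33.1 to 36.9).

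The donors were female mice aged 12 weeks. They were given vehicle (Veh) or 10 mg/kg doxorubicin (Doxo), an anthracycline that poisons topoisomerase II, and bones were taken 96 h later to ask how bone resident cells respond to chemotherapy. Cells released by collagenase were depleted of blood cells carrying CD45, CD71 or Ter119 by magnetic beads and sorting. The labels also name CD31, an endothelial marker, which the published methods of the single-cell experiment do not, and endothelial-like cells were present in both libraries. Each treatment gave 1 10x Genomics 3' library. The labels give neither the strain nor how many mice were pooled. With 1 library a group no test of treatment was possible, so every interval here covers counting error only and neither mouse nor library variation.

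Fibroblasts at the joint surface, in the outer layers of cartilage and in tendon and ligament insertions secrete the matrix that lubricates, anchors and organises these tissues. Lubricin from Prg4 keeps opposing cartilage surfaces gliding, while small leucine-rich proteoglycans such as fibromodulin, lumican and decorin set the spacing and diameter of collagen fibrils. Tendon cells are known for the transcription factor scleraxis and for its target tenomodulin.

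UMIs (unique molecular identifiers, 1 per captured RNA molecule) were recovered from the deposited values, and levels are given as CPM (counts scaled to 1000000) of the UMIs summed over all BCF-like cells of a library. The sums held 8551052 UMIs in Veh and 7252324 in Doxo. Depth per BCF-like cell differed between the libraries, with a median of 9801.5 UMIs and 2799 genes in Veh against 7633 UMIs and 2302 genes in Doxo, and the median mitochondrial share was 2.28% against 2.92%. In the whole libraries the medians were 8693 and 7347.5 UMIs per cell. The 2 libraries shared 4 cell barcodes, and no shared barcode was a BCF-like cell in both.

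Against the markers of the label, all 6 genes were present. Fmod, which binds collagen fibrils, stood at 2176 CPM in Veh and 1301 CPM in Doxo, Cilp, a cartilage matrix protein, at 6677 and 6249 CPM, and Angptl7, a secreted angiopoietin-like protein, at 2362 and 2386 CPM. These 3 genes chose the cells, so their levels are a description. Thbs4, a thrombospondin of tendon and cartilage that the rule did not use, stood at 1648 CPM in Veh and 1009 CPM in Doxo, against 272 and 206 CPM in all other cells of the same libraries. Lgr6, an R-spondin receptor, stood at 48.8 and 61.9 CPM against 16.9 and 26.8 CPM. Prg4 stood at 23675 and 26332 CPM, but all other cells also held 13206 and 19486 CPM, so Prg4 alone did not set BCF-like cells apart. The genes lie on GRCm38 (GENCODE M21) at chr1:134037254-134048277 for Fmod, chr9:65265180-65280605 for Cilp, chr4:148495183-148500460 for Angptl7, chr13:92751590-92794818 for Thbs4, chr1:134983301-135105276 for Lgr6 and chr1:150449412-150466165 for Prg4, all protein-coding.

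The edges of the rule cut through cells with much Prg4. In Veh, 466 BCF-like cells carried 2 of the 3 rule genes and 356 carried all 3. The cells with 2 held 34891 CPM of Prg4 and 1283 CPM of Fmod, and the cells with 3 held 10099 CPM of Prg4 and 3256 CPM of Fmod. Just outside, 173 cells of Veh and 269 of Doxo had the highest BCF score but only 1 rule gene, and held 64974 and 54903 CPM of Prg4. At the other edge, 126 BCF-like cells of Veh and 141 of Doxo led the next score by less than 0.5, with 1195 and 1163 CPM of Fmod. Another 47 and 31 cells had at least 2 rule genes but fell short of the highest score by at most 0.5, with 676 and 324 CPM of Fmod. The lining genes removed 1 and 4 cells.

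**Figure D1:**
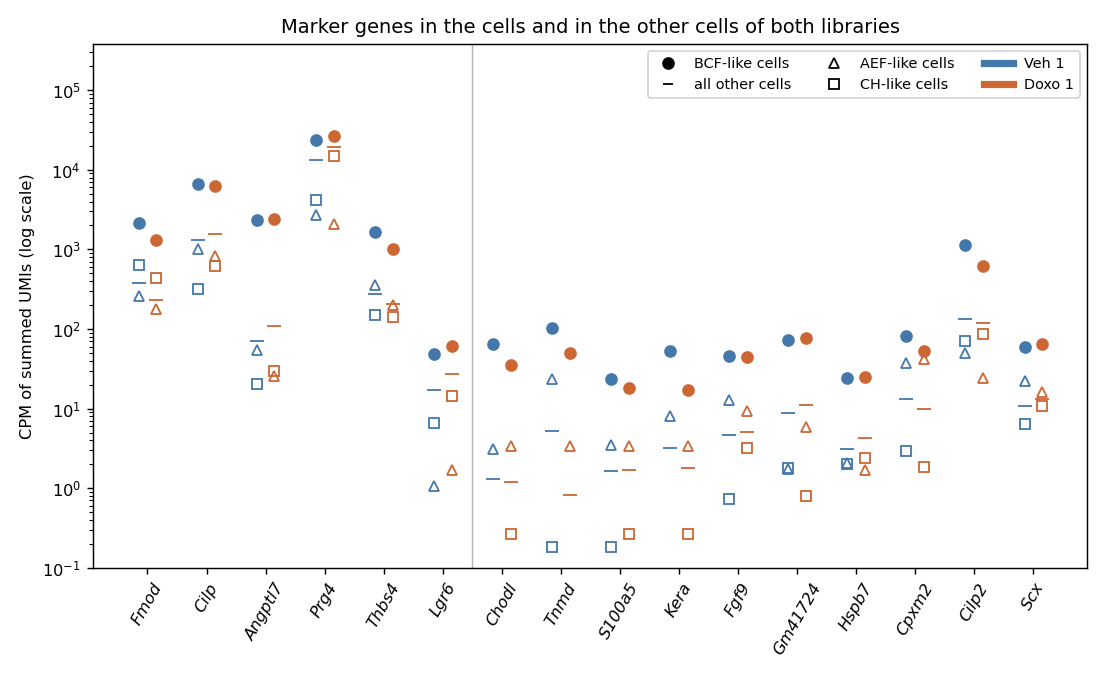
CPM of the summed UMIs, on a log axis, for the 6 markers of the label (left of the line) and for 10 of the leading markers of BCF-like cells (right). Filled circles are BCF-like cells, dashes all other cells, triangles arteriolar and endosteal fibroblast-like (AEF-like) cells and squares chondrocyte-like (CH-like) cells, in blue for Veh 1 and orange for Doxo 1. Levels of 0 are not drawn, and Prg4 is the gene whose level in all other cells comes closest to that in BCF-like cells.

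Of 6564 genes with at least 100 UMIs in the BCF-like cells of each library, 161 stood at least 2-fold above all other cells in both. The 15 genes with the largest lower ratio of the 2 libraries mixed the rule genes with tendon and signalling genes. Chodl, which encodes the membrane lectin chondrolectin, stood at 64.6 CPM in Veh and 35.3 CPM in Doxo, and all other cells held 1.29 and 1.18 CPM. Tnmd (chrX:133850980-133865577) encodes tenomodulin and stood at 102 and 49.6 CPM against 5.15 and 0.812 CPM. Kera, keratocan, stood at 52.4 and 17.2 CPM against 3.19 and 1.77 CPM. The tendon transcription factor Scx stood at 59.4 and 64.0 CPM against 10.7 and 13.0 CPM. Cilp2, a relative of Cilp found in cartilage, stood at 1121 and 618 CPM against 134 and 120 CPM. Fgf9, a fibroblast growth factor, stood at 45.5 and 44.3 CPM, and the neuropeptide gene Npy at 618 and 232 CPM. S100a5, Gm41724, Hspb7, Cpxm2 and Dmkn completed the 15 with Angptl7, Fmod and Thbs4.

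The most similar fibroblasts by name, AEF-like cells (278 in Veh and 145 in Doxo, chosen by Clec3b, Col14a1 and Mfap5), held less of these genes. Their Chodl level was 3.15 and 3.36 CPM and their Tnmd level was 23.4 and 3.36 CPM. CH-like cells (306 and 272, chosen by Acan, Col9a1 and Matn3) listed 0 Chodl UMIs in Veh and 0.266 CPM in Doxo. Both are descriptions, since each group was chosen by measured values.

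The cells were not uniform. Clustered on their own, BCF-like cells fell into 4 sub-clusters, whose leading genes follow as a description. Sub-cluster 1 (263 cells of Veh and 267 of Doxo) was led by Lum, which encodes lumican, at 2003 CPM against 286 CPM in the other BCF-like cells, and by Ptprd and Cdh11. Sub-cluster 2 (242 and 157) was led by Chodl at 240 against 0.722 CPM, Tnmd at 325 against 11.8 CPM and Clec3b at 640 against 35.2 CPM, and 7 of the 9 tendon and ligament markers were at least 2-fold higher in it. Sub-cluster 3 (165 and 232) was led by Msmp, by Mia, a cartilage gene, at 305 against 20.9 CPM and by Col9a2 at 208 against 15.8 CPM. The 4 joint surface markers Prg4, Cytl1, Vit and Erg were also at least 2-fold higher in sub-cluster 3, as were Col9a1, Col2a1 and Col9a2 of the chondrocyte markers. Sub-cluster 4 (152 and 214) was led by Spp1, osteopontin, at 9449 against 1772 CPM and by Chst1, Tnfaip6 and Npy. Sizes are given as numbers of cells and were not compared between the libraries.

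Single cells at equal depth showed which genes met in the same cell. Each cell was thinned at random to 2000 UMIs, which left out 15 cells of Veh and 19 of Doxo and kept 807 and 851. Prg4 was seen in 89.6% of BCF-like cells in Veh and 93.3% in Doxo, but also in 25.3% and 35.2% of endothelial-like cells, a type that should lack it (median depth 6474 and 4678 UMIs). Thbs4 was seen in 55.1% (51.6 to 58.6) and 45.1% (41.7 to 48.5), against 2 of 91 and 0 of 54 endothelial-like cells. Cilp2 was seen in 71.4% (68.1 to 74.5) and 52.5% (49.1 to 55.9), against 0 and 1 of these endothelial-like cells. Without thinning, Thbs4 was seen in 75.8% and 67.1% of BCF-like cells and Cilp2 in 90.0% and 79.1%.

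Tnmd was seen in 10.3% (8.28 to 12.6) of thinned BCF-like cells in Veh and in 6.82% (5.22 to 8.72) in Doxo, and Lgr6 in 6.07% (4.53 to 7.95) and 11.0% (9.02 to 13.3). Without thinning the shares were 13.6% and 10.1% for Tnmd and Lgr6 was seen in 173 of 822 and 211 of 870 cells. Most cells with Tnmd also held Thbs4 (80 of 83 in Veh and 51 of 58 in Doxo). Tnmd was seen in 18.0% of cells with Thbs4 and 0.829% of cells without it in Veh, and in 13.3% of cells with it in Doxo. Tnmd and Chodl met in 43 cells of Veh and 25 of Doxo, which is 51.8% and 43.1% of the cells with Tnmd. Tnmd and Lgr6 met in 0 of 807 and 0 of 851 thinned cells, which allows shares of cells with UMIs of both of up to 0.372% and 0.353%, and unthinned in 2 of 822 and 1 of 870 cells. Both genes were rare after thinning, and the product of their single shares was 0.624% in Veh and 0.753% in Doxo. Tnmd and Npy met in 1 and 2 thinned cells (0.124% and 0.235%), where the product of their single shares was 1.63% and 0.857%.

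**Figure D2:**
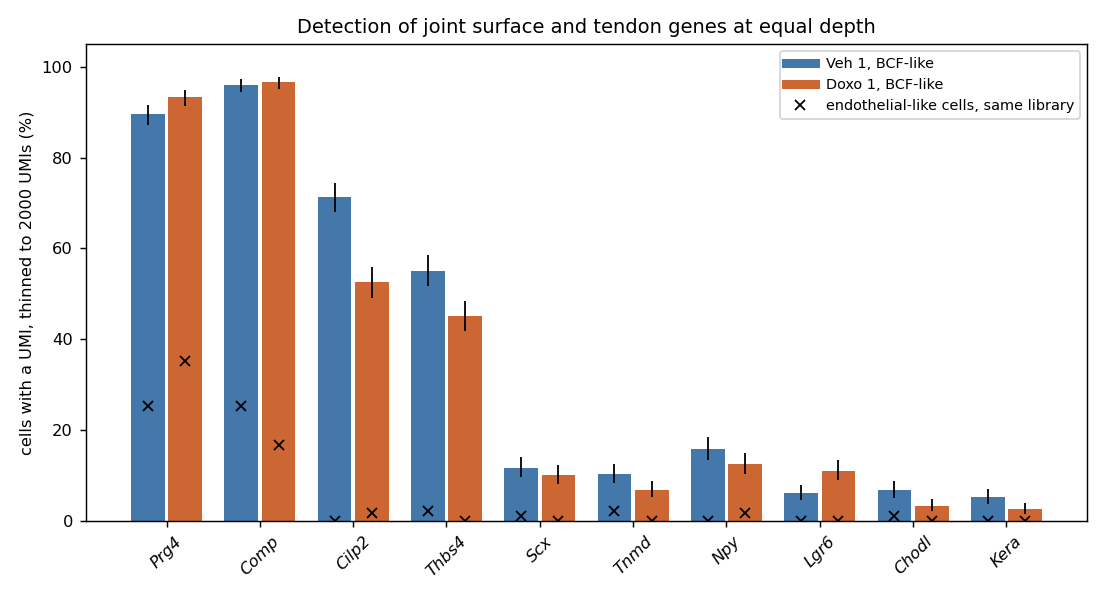
Share of BCF-like cells with at least 1 UMI of each gene after every cell was thinned to 2000 UMIs, in percent. Bars are the 807 cells of Veh 1 (blue) and 851 cells of Doxo 1 (orange), error bars are exact 95% binomial intervals for counting error, and crosses are the endothelial-like cells of the same library. Cilp2 and Thbs4 have lower bars in Doxo, and the crosses are above 15% for Prg4 and Comp alone.

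Levels in the BCF-like cells of Doxo were then set against those of Veh gene by gene. A log2 ratio of Doxo to Veh was formed from the summed UMIs with 0.5 UMI added to each, and a gene was counted as higher or lower from a 1.5-fold difference on. Of 10792 genes with at least 50 UMIs over both libraries, 298 were higher in Doxo (2.76%) and 702 were lower (6.50%), and the median log2 ratio was -0.07. Centred on that median the split was 425 higher and 537 lower, and on the difference of the mean deposited values it was 61 higher and 1655 lower. The deposited values had been scaled and logged repeatedly, so their difference is not a log2 ratio of CPM. The cut and the sign of a gene on that difference are not like for like with those of the ratios. Over all other cells, 950 of 12877 genes were higher (7.38%) and 835 lower (6.48%). In AEF-like cells the shares were 5.79% and 7.55% of 7633 genes, and in CH-like cells 9.13% and 8.85% of 8968 genes. Each list below is read against the 2.76% and 6.50% of BCF-like cells.

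Joint surface genes stayed within 1.5-fold, with 1 exception. Of 7 measured members, 0 were higher and only Cilp2 (chr8:69880369-69887687) was lower, from 1121 to 618 CPM, a log2 ratio of -0.86 (95% interval -0.91 to -0.81). All other cells had a ratio of -0.16 for Cilp2, AEF-like cells -1.02 and CH-like cells 0.29. Within sub-clusters 1 to 4 the Cilp2 ratio was -0.71, -1.15, -0.53 and -0.93, so it was below 0 in each. Prg4 differed by 0.15 (0.14 to 0.16), but with the 4 sub-clusters weighted alike in both libraries its ratio was -0.13, and among cells with all 3 rule genes it was -0.03. Its sign thus depended on which cells were counted and how they were weighted. The sub-clusters came from the same expression values, and the cause was not tested. Cytl1, a secreted cytokine-like protein, stood at 10002 and 12938 CPM, a ratio of 0.37, and the transcription factor gene Creb5 at 212 and 294 CPM, a ratio of 0.47. Gdf5 and Crtac1 had under 50 UMIs and were not measured.

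Tendon and ligament genes were lower or near level. Of 9 measured genes, 0 were higher and 3 were lower, and the median ratio was -0.44 against -0.40 in all other cells. Kera was at 52.4 CPM in Veh and 17.2 CPM in Doxo, a ratio of -1.60 (-1.90 to -1.31). Tnmd was at 102 and 49.6 CPM, a ratio of -1.04 (-1.22 to -0.86), and Thbs4 at 1648 and 1009 CPM, a ratio of -0.71 (-0.75 to -0.67). Comp, a matrix protein of cartilage and tendon, was at 11799 and 8547 CPM, a ratio of -0.47, but 0.20 on the difference of mean deposited values. Scx was at 59.4 and 64.0 CPM, and its interval of -0.08 to 0.29 held 0. On that difference Scx stood at -0.19.

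Weighting of the sub-clusters changed these ratios. With the sub-clusters weighted alike in both libraries, Tnmd stood at -0.37, Kera at -0.91, Thbs4 at -0.29 and Scx at 0.40, and the median of the 9 genes at -0.19. Inside sub-cluster 2, which holds most of the Tnmd UMIs, Tnmd was at 356 and 268 CPM, a ratio of -0.41 (-0.60 to -0.22). There Kera was at 190 and 67.6 CPM, a ratio of -1.48 (-1.86 to -1.14), and Scx at 133 and 194 CPM, a ratio of 0.55 (0.29 to 0.81). Chodl, the leading gene of sub-cluster 2, had a ratio of -0.17 (-0.40 to 0.04) in it. Kera was thus the tendon gene that remained past 1.5-fold among the cells that carry most of it.

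Small leucine-rich proteoglycans were lower in 5 of 14 measured genes and higher in 0, with a median of -0.43 against -0.08 in all other cells. They include Fmod, whose values helped to choose the cells. Their summed level was 47104 CPM in Veh and 38180 CPM in Doxo. Decorin (Dcn) made up most of it, at 32609 and 25764 CPM, a ratio of -0.34, but 0.14 on the difference of mean deposited values. Fmod had a ratio of -0.74, Aspn, asporin, was at 521 and 311 CPM with a ratio of -0.75, and Lum at 911 and 591 CPM with a ratio of -0.62. Epyc, epiphycan of growth plate cartilage, was at 37.9 and 7.72 CPM, a ratio of -2.28 (-2.73 to -1.88), while all other cells held 87.3 and 61.1 CPM. Few BCF-like cells carried Epyc (3.53% in Veh and 2.53% in Doxo), and 1 cell of Veh held 70 of 324 UMIs. Without the top cell of each library its ratio was -2.12. Biglycan (Bgn) and chondroadherin (Chad) were near level, at -0.05 and 0.07. The 5 lower genes were below 0 in all other cells too, with Fmod at -0.69, Aspn at -0.89, Lum at -0.84, Epyc at -0.51 and Kera at -0.83. The list median was -0.31 in AEF-like cells and -0.20 in CH-like cells. In each of the 4 sub-clusters the median of this list was below 0, from -0.38 to -0.22.

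Of 29 measured collagen genes, 2 were higher and 6 lower, with a median of -0.24 against -0.56 in all other cells. Chains of the fibrils of skin, bone and tendon stood in front of the lower genes. Col3a1 (chr1:45311538-45349706) was at 1992 and 939 CPM, a ratio of -1.08 (-1.13 to -1.04), and Col1a1 at 3310 and 1924 CPM, a ratio of -0.78, which was 0.04 on the difference of mean deposited values. Col14a1 and Col5a2 had ratios of -0.72 and -0.59, and Col14a1 is a gene of the AEF set that helped to choose the cells. Col3a1 was below 0 in each sub-cluster, from -0.95 to -0.65.

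Both genes counted as higher belong to cartilage. Col2a1, the main fibril of cartilage (chr15:97975602-98004695), was at 434 and 738 CPM, a ratio of 0.77 (0.71 to 0.83), while all other cells had -0.98, AEF-like cells -0.88 and CH-like cells -0.77. Within the sub-clusters Col2a1 had ratios of -0.92, -0.64, 0.45 and 0.56, so the sign differed among them, and on the difference of mean deposited values it stood at -0.09. Col10a1, of hypertrophic cartilage, was at 57.2 and 118 CPM, a ratio of 1.04, and 0.71 without the single cell of each library that held most of it. It stood at -0.53 among cells with all 3 rule genes and at -0.11 on the difference of mean deposited values. The other collagens of cartilage stayed within 1.5-fold, with Col9a1 at -0.21, Col9a2 at 0.38, Col11a2 at 0.21 and Col27a1 at 0.45. The chondrocyte markers as a list stood at 812 and 1316 CPM in BCF-like cells, against 11058 and 6052 CPM in all other cells, and 3 of 5 measured were higher. The rule fixes these levels in part, since it used Acan, Col9a1 and Matn3 of this list. Col2a1 is itself a gene of the list. Their part in the Col2a1 result was not tested.

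Enzymes that crosslink collagen also had genes on the lower side. Of 25 collagen processing genes 0 were higher and 3 were lower, all of them lysyl oxidase-like enzymes. Loxl4 was at 25.7 and 8.69 CPM, a ratio of -1.56 (-1.99 to -1.16), Loxl2 (chr14:69609068-69695834) at 118 and 53.8 CPM, a ratio of -1.13 (-1.30 to -0.96), and Loxl1 at 26.1 and 16.7 CPM, a ratio of -0.64 (-0.98 to -0.32). Lox itself, at 415 and 349 CPM, had a ratio of -0.25. Loxl2 was below 0 in each sub-cluster, from -0.94 to -0.68. The prolyl and lysyl hydroxylases P4ha1, Plod1 and Plod2 lay between -0.04 and 0.06.

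Among 31 matrix glycoproteins, 1 was higher and 9 were lower, with a median of -0.35 against -0.39 in all other cells. Some elastic fibre genes were in front: Eln, elastin, was at 20.9 and 3.45 CPM, a ratio of -2.58, but 1 cell of Veh held 57.5% of its UMIs, and the ratio without the top cell of each library was -1.81. Eln also stood at -1.98 in all other cells and -1.90 in AEF-like cells. The fibrillin gene Fbn2, with only 41 and 11 UMIs, had a ratio of -1.61, and Fbln5 and Mfap2 had ratios of -0.88 and -0.71. Their relatives Fbn1 (-0.25), Efemp2 (-0.25), Fbln2 (-0.04) and Mfap4 (-0.01) stayed within 1.5-fold. Fibronectin (Fn1), at 4287 and 4169 CPM, had a ratio of -0.04, and Spp1, at 3664 and 4032 CPM, one of 0.14. Spp1 differed among the sub-clusters, with ratios of 0.88, 1.04, 0.72 and -0.42.

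Of 26 matrix proteases and their inhibitors, 1 was higher and 5 were lower, with a median of -0.06. Mmp3, stromelysin (chr9:7445822-7455975), was at 119 and 39.8 CPM, a ratio of -1.57 (-1.77 to -1.39), against -0.04 in all other cells, 0.42 in AEF-like cells and 0.82 in CH-like cells. It was below 0 in each sub-cluster, from -2.48 to -0.88, though the interval held 0 in sub-cluster 4, which had only 12 and 4 UMIs. Mmp2, a gelatinase, was at 257 and 178 CPM, a ratio of -0.53. The aggrecanase Adamts5 was at 315 and 321 CPM, and Timp3, an inhibitor, at 1776 and 2104 CPM, a ratio of 0.24.

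**Figure D3:**
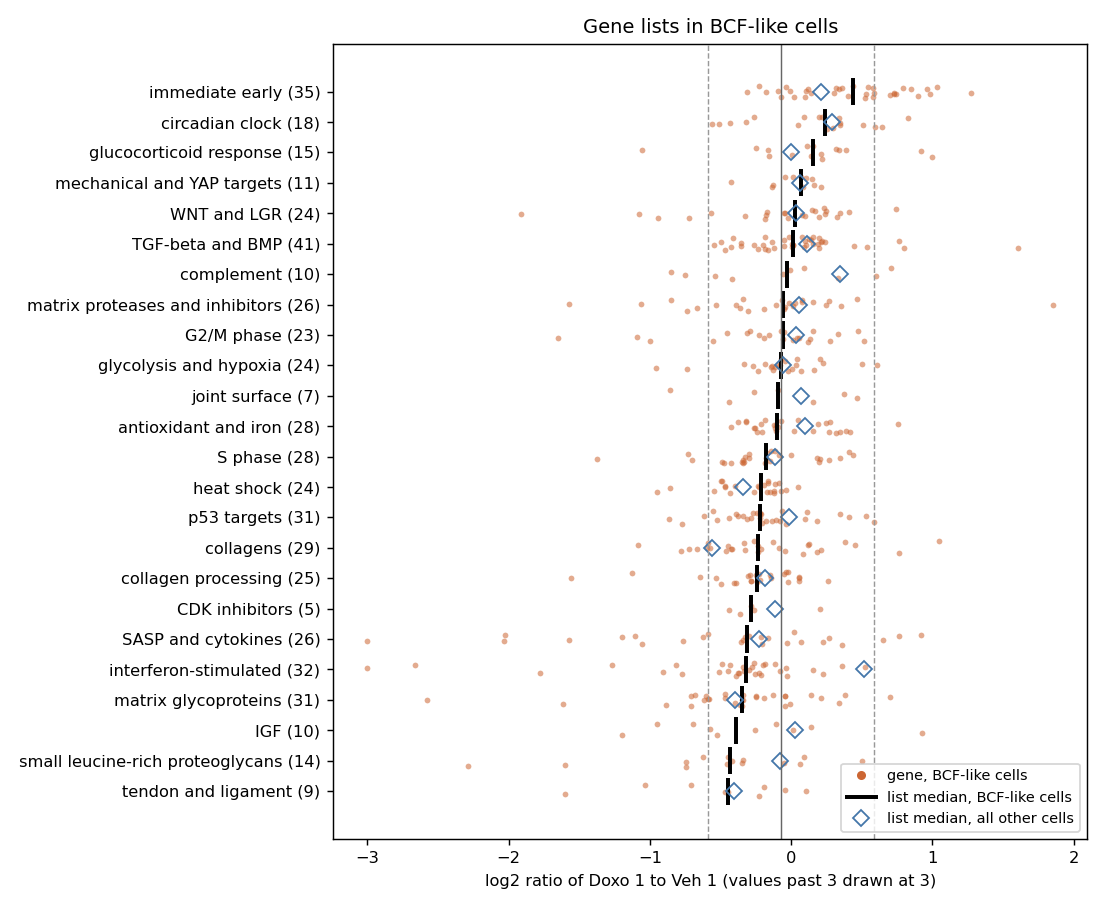
Log2 ratio of Doxo 1 to Veh 1 in BCF-like cells for the measured genes of 24 lists (number of genes in parentheses), ordered by the median. Points are genes, black bars list medians, blue diamonds the median of the same list in all other cells, dashed lines 1.5-fold and the grey line the median of all 10792 genes. The immediate early list sits farthest to the right at 0.44 and the tendon and ligament list farthest to the left at -0.44, while the interferon list has its black bar at -0.32 and its diamond at 0.52.

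Growth factor signalling differed little. Of 41 TGF-beta and BMP genes 3 were higher and 0 lower, with a median of 0.01. The target Id1, at 187 and 326 CPM, had a ratio of 0.80, and the BMP antagonist Chrdl2, at 5.85 and 17.9 CPM, one of 1.61 (1.14 to 2.12). Of 24 WNT and LGR genes 1 was higher and 4 were lower, with a median of 0.03. Lef1, a transcription factor of the pathway, was at 11.1 and 2.90 CPM, a ratio of -1.91 (-2.70 to -1.25). Sfrp2 passed 1.5-fold at 0.74, but stood at -0.09 without the top cell of each library.

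Both IGF growth factor genes were lower. Of 10 measured, 1 was higher and 3 were lower, with a median of -0.39 against 0.03 in all other cells. The growth factor Igf1 was at 47.1 and 29.1 CPM, a ratio of -0.69 (-0.94 to -0.45), and Igf2 at 32.9 and 17.0 CPM, a ratio of -0.95. The binding protein Igfbp3 was at 23.9 and 10.3 CPM, a ratio of -1.20. The abundant binding proteins Igfbp7 and Igfbp6, at 4052 and 2717 CPM and at 2925 and 2033 CPM, had ratios of -0.58 and -0.52. With the sub-clusters weighted alike, Igf1 stood at -0.30 and the list median at -0.20.

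Immediate early genes, which switch on within minutes of a stimulus, formed the list with most genes higher. Of 35 measured, 12 were higher (34.3%, against 2.76% of all genes) and 0 lower, with a median of 0.44 against 0.21 in all other cells, and their summed level was 16827 CPM in Veh and 25380 CPM in Doxo. All other cells had 12 of 36 higher and 5 lower. The most similar cells had medians as high or higher. AEF-like cells had a median of 0.41, with 13 of 35 higher and 1 lower. CH-like cells had a median of 0.60, with 18 of 36 higher and 5 lower. In BCF-like cells Fos (chr12:85473890-85477273) was at 2324 and 4744 CPM, a ratio of 1.03 (1.00 to 1.05). Its partner Fosb was at 1072 and 1995 CPM, a ratio of 0.90, and Egr1 at 1133 and 1960 CPM, a ratio of 0.79. The nuclear receptor Nr4a1 was at 289 and 570 CPM, a ratio of 0.98, and Zfp36, which marks cytokine transcripts for decay, at 308 and 602 CPM, a ratio of 0.97. Klf2 (chr8:72319033-72321656), a transcription factor, was at 405 and 979 CPM, a ratio of 1.27 (1.21 to 1.33). Junb at 0.54 and Jun at 0.44 stayed within 1.5-fold, and Jund (0.02), Myc (-0.01) and Gadd45b (-0.03) were near level.

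The list was less one-sided in sub-cluster 2, where 7 genes were higher and 6 lower with a median of 0.17, against medians of 0.43, 0.38 and 0.52 in sub-clusters 1, 3 and 4. Fos had ratios of 0.84, 0.79, 1.18 and 1.29 in sub-clusters 1 to 4, and Klf2 1.34, 0.92, 1.56 and 1.06. All other cells showed 0.79 for Fos and 1.25 for Klf2, so both were higher in Doxo there too.

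The bases just before the start of some of these genes are shown as context for this list, in which 12 genes were counted as higher and 0 as lower. Junb, which stayed within 1.5-fold, is among them. The RefSeq promoter table (GRCm38.p6) held 38 windows for 29 of the 35 genes. A cyclic AMP response element half-site (TGACG, or CGTCA on the other strand) lay in the 250 bases before the start in 23 of 38 windows (60.5%), against 17.8% of all 32851 windows. The full element TGACGTCA, which contains both half-sites, was in 4 of 38 (10.5%) against 1.55%, and the CArG box bound by serum response factor in 6 of 38 (15.8%) against 1.47%. The AP-1 motif TGANTCA, which contains no half-site and no CArG box, was in 1 of 38 (2.63%) against 6.75%. Some genes had more than 1 window. Counted by gene, the half-site was found for 17 of 29, against 5347 of all 27025. The full element was found for 4 genes against 478, the CArG box for 3 against 439 and the AP-1 motif for 1 against 2113. A match is a description of letters and not a bound site. In the stretches below, all read in the direction of the gene and ending at the base before its RefSeq start, capitals mark the half-sites. Fos is at chr12:85473640-85473889 (plus strand), Fosb at chr7:19310046-19310295 (minus strand), Junb at chr8:84978749-84978998 (minus strand), Nr4a1 at chr15:101266596-101266845 (plus strand) and Klf2 at chr8:72318812-72319061 (plus strand).
Fos: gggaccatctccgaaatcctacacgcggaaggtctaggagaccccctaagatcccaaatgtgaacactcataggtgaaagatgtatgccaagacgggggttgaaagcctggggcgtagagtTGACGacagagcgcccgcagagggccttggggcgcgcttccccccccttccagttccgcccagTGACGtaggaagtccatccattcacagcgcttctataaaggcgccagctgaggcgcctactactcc
Fosb: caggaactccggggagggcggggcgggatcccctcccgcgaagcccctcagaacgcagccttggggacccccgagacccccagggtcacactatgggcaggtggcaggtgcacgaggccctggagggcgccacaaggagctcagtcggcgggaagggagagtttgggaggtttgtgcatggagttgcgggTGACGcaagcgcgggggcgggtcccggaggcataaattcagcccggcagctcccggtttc
Junb: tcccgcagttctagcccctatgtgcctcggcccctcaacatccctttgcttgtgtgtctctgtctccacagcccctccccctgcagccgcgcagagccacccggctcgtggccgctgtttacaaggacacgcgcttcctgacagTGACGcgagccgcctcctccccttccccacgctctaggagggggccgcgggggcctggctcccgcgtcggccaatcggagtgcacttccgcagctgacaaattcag
Nr4a1: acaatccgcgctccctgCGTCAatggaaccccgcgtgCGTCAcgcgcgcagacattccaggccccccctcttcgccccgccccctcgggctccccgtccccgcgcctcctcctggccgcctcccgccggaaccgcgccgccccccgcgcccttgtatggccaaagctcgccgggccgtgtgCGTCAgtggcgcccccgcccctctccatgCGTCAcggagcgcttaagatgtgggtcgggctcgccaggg
Klf2: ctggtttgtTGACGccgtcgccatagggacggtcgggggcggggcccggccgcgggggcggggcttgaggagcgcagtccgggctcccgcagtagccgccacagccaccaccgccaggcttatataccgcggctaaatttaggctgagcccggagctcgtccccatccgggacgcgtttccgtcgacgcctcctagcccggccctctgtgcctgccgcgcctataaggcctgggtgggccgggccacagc
The half-site nearest the start was 66 bases before it in Fos, 60 in Fosb, 106 in Junb, 40 in Nr4a1 and 241 in Klf2, and Nr4a1 held 4.

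Clock and glucocorticoid response genes also had medians above 0. Of 18 clock genes 3 were higher and 0 lower, with a median of 0.24 against 0.29 in all other cells. Hlf was at 17.0 and 30.2 CPM, a ratio of 0.83 (0.52 to 1.15), Bhlhe41 at 49.5 and 77.4 CPM, a ratio of 0.64, and Cry2 at 59.9 and 90.3 CPM, a ratio of 0.59. Arntl, which opposes several of these in phase, was at 15.3 and 10.3 CPM, a ratio of -0.56. Of 15 glucocorticoid response genes 2 were higher and 1 was lower, with a median of 0.16. Fkbp5, a chaperone of the glucocorticoid receptor, was at 19.8 and 39.4 CPM, a ratio of 0.99 (0.72 to 1.28), and Tsc22d3 at 350 and 409 CPM, a ratio of 0.22.

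Chemokines and other secreted inflammatory genes went both ways. Of 26 measured genes of the senescence-associated secretory and cytokine list, 3 were higher and 10 were lower, with a median of -0.31 against -0.23 in all other cells. In CH-like cells the list median was -1.13, with 2 of 22 measured genes higher and 14 lower. In AEF-like cells it was 0.25, with 6 of 26 higher and 5 lower. Ccl2, which attracts monocytes, was at 158 and 38.7 CPM, a ratio of -2.03 (-2.22 to -1.84), and its relative Ccl7 at 39.8 and 9.65 CPM, also -2.03. Cxcl1, which attracts neutrophils, was at 357 and 166 CPM, a ratio of -1.10 (-1.20 to -1.01). Lcn2, a lipocalin that binds iron carriers, was at 37.3 and 70.6 CPM, a ratio of 0.92. Cxcl10 was counted as higher at 0.65, but stood at -0.58 without the top cell of each library.

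Ccl2 and Cxcl1 differed among the sub-clusters. In sub-cluster 2, Ccl2 was at 564 and 156 CPM, a ratio of -1.85 (-2.09 to -1.63), and Cxcl1 at 910 and 198 CPM, a ratio of -2.20. Cxcl1 had a ratio of -1.92 in sub-cluster 3. In sub-cluster 4, Ccl2 had a ratio of -0.17 and Cxcl1 one of 0.42 (0.25 to 0.59). AEF-like cells had ratios of 0.49 for Ccl2 and 0.34 for Cxcl1, with the sign opposite to that of BCF-like cells. The difference was not tested, since each group is 1 library.

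The window before Mmp3, the protease with the lowest ratio, is printed because it held an AP-1 motif, in capitals, 46 bases before the start. It lies at chr9:7445572-7445821 on the plus strand. Of 23 windows of the 21 secretory list genes found, 6 held the motif (26.1%), against 6.75% of all windows.
Mmp3: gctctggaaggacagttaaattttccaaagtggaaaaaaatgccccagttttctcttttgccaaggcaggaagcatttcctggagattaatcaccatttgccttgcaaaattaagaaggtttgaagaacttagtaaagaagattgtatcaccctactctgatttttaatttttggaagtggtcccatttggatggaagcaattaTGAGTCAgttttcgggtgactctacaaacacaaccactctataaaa

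Interferon-stimulated genes were lower in 7 of 32 measured genes and higher in 0, with a median of -0.32 against 0.52 in all other cells. In AEF-like cells the list median was -0.13, with 2 of 28 measured genes higher and 4 lower. In CH-like cells it was 0.01, with 4 of 18 higher and 3 lower. A single BCF-like cell of Veh bore on the front of this list: it held 84 of 111 Ifit3b UMIs, 69 of 119 Ifit3 UMIs and 38 of 72 Isg15 UMIs. Without the top cell of each library, Ifit3 went from -1.78 to -0.64, Ifit1 from -2.66 to -0.45 and Isg15 from -1.27 to -0.83. B2m, a broadly expressed member, was near level at 320 and 304 CPM (-0.08). The list median was -0.56, 0.14, 0.03 and -0.15 in sub-clusters 1 to 4. Mx1 and Mx2 were not analysed here.

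**Figure D4:**
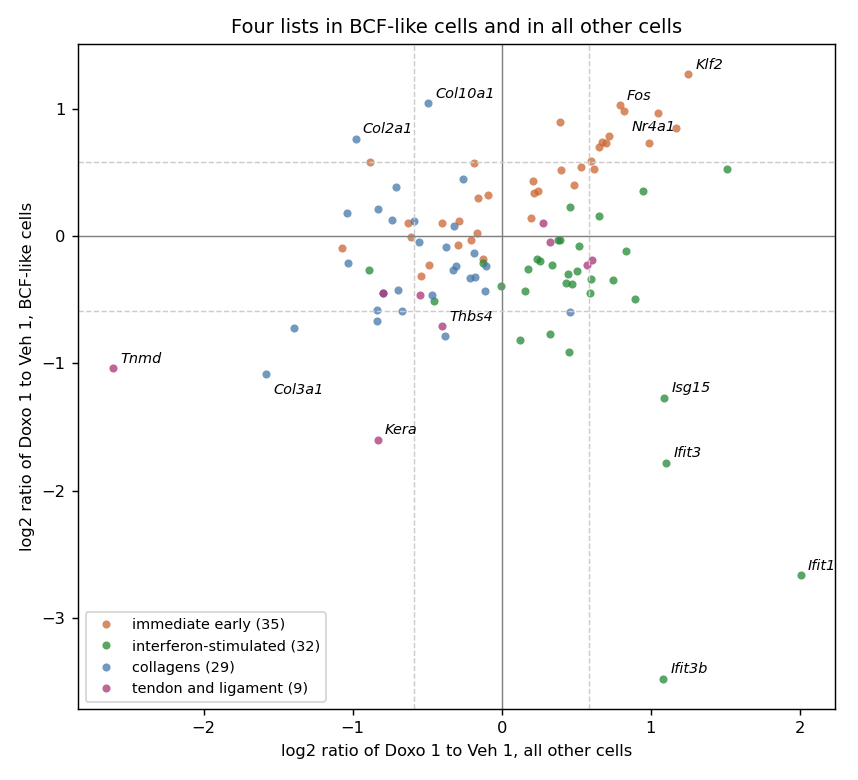
Log2 ratio of Doxo 1 to Veh 1 in all other cells (horizontal) and in BCF-like cells (vertical) for the genes of 4 lists, with dashed lines at 1.5-fold. Most immediate early genes lie at upper right, interferon genes lie mainly to the right and below 0, and Col2a1 and Col10a1 lie at upper left. No cell is in both axes, and each axis compares the same 2 libraries.

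Cdkn1a, the p21 inhibitor of cyclin-dependent kinases, was at 706 and 578 CPM, a ratio of -0.29 (-0.34 to -0.23), and at 2000 UMIs was seen in 57.0% and 50.1% of cells, against 52.7% and 57.4% of endothelial-like cells. Of 5 measured inhibitor genes 0 passed 1.5-fold in either direction. Cdkn2a, whose products include p16, was seen in 1 thinned cell of each library (0.124% and 0.118%). Of 31 p53 target genes 1 was higher and 3 were lower, with a median of -0.22 against -0.01 in all other cells. The higher one was Perp, with 25 and 32 UMIs and a ratio of 0.59 whose interval of -0.21 to 1.41 held 0. Mdm2 was at 56.5 and 53.5 CPM (-0.08), Fas at 29.7 and 17.4 CPM (-0.77) and Plk2 at 12.4 and 6.76 CPM (-0.87).

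Few BCF-like cells carried genes of dividing cells. Without thinning, at least 3 of 8 core genes (Mki67, Top2a, Cdk1, Birc5, Ube2c, Ccnb2, Cenpf and Nusap1) were seen in 11 of 822 cells of Veh (1.34%, 0.670 to 2.38) and 3 of 870 of Doxo (0.345%, 0.0712 to 1.00). Cells of Veh were deeper. At 2000 UMIs Mki67 was seen in 10 of 807 and 4 of 851 cells, and Top2a in 7 and 5. The 8 genes summed to 36.8 CPM in Veh and 23.2 CPM in Doxo, but did not all go the same way. Mki67 was at 11.0 and 3.45 CPM, a ratio of -1.65 (-2.37 to -1.02), and Top2a had 69 and 29 UMIs, a ratio with an interval of -1.69 to -0.37. Ube2c and Cenpf had ratios above 0, of 0.51 and 0.47, and Cenpf stood at -0.91 without the top cell of each library. Thinned to 2000 UMIs, at least 3 of the 54 genes of the G2/M list were seen in 23.0% (20.2 to 26.1) and 22.6% (19.8 to 25.5) of cells. Of 23 measured genes of that list 0 were higher and 3 lower, and of 28 S phase genes 0 were higher and 3 lower, with medians of -0.06 and -0.18.

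Most stress and metabolic genes stayed within 1.5-fold. Of 24 heat shock genes 0 were higher and 2 were lower, Hsph1 at 112 and 58.1 CPM (-0.95) and Cryab at 298 and 165 CPM (-0.86). Only 1 of the 24 had a ratio above 0, and the list median was -0.21, against -0.34 in all other cells. In sub-clusters 1 to 4 the median was -0.09, -0.40, -0.45 and -0.24, and 7 genes were lower in each of sub-clusters 2 and 3. Of 24 glycolysis and hypoxia genes 1 was higher, Hk2, the first enzyme of glycolysis, at 99.6 and 152 CPM (0.61), and 2 were lower. Of 28 antioxidant and iron genes 1 was higher, the transferrin receptor Tfrc at 17.0 and 28.7 CPM (0.76), and 0 were lower. Of 10 complement genes 2 were higher and 2 lower, among them Serping1, the C1 inhibitor, at 298 and 165 CPM (-0.85, against 0.14 in all other cells). Of 11 mechanical and YAP target genes 0 passed 1.5-fold.

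The 12 genes with the highest ratios among those BCF-like cells carry at a level of at least 0.5 times that of other cells included Bc1, Rgs5, Rtn2, Gm9780, Slpi, Serpina3n, Chrdl2, Arl4d, Tsix, Gm26802 and Gm10076. Bc1, a small cytoplasmic RNA known from neurons, went from 7 UMIs to 244, a log2 ratio of 5.26 (4.30 to 6.69), against 4.91 in all other cells. Serpina3n, a secreted protease inhibitor of the acute phase (chr12:104406729-104414329), was at 35.9 and 119 CPM, a ratio of 1.72 (1.53 to 1.92), against 1.30 in all other cells, 1.63 in AEF-like cells and -1.23 in CH-like cells. In sub-clusters 1 to 4 Serpina3n had ratios of 2.71, 1.11, 2.78 and 1.07. Single cells decided others: 1 cell of Doxo held 254 of 366 Rgs5 UMIs, and 46 of 78 Slpi UMIs sat in another.

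The 12 lowest were Vpreb3, Vpreb1, AI504432, Il1b, Arhgap45, Ifit3b, Ccl4, Slc6a4, Fyb, Hist1h1b, Itga2b and Eln. Vpreb3, a gene of B cell precursors, had 171 UMIs in Veh and 0 in Doxo, which is at least 48.3-fold lower against a floor of 3 UMIs over the library's summed cells. Vpreb1 had 160 and 3 UMIs, and lymphoid markers as a list are given below. The cell of Veh with most UMIs (35919) held 251 of 356 Itga2b UMIs, 121 of 159 Slc6a4 UMIs and 200 of 249 AI504432 UMIs, and another held 159 of 175 Il1b UMIs and 80 of 94 Ccl4 UMIs. Among genes seen in at least 100 cells of the higher library with at most 10% of UMIs in 1 cell, a rule added after the values were seen, the lowest were Hist1h1e (-2.39), Clec3b (-1.84), Hist1h4d (-1.68), Car2 (-1.58), Loxl4 and Npy. Clec3b is a gene of the AEF set that helped to choose the BCF-like cells, so its level depends in part on that choice. Npy was at 618 and 232 CPM, a ratio of -1.41 (-1.49 to -1.33), against -0.15 in all other cells. AEF-like cells had a ratio of -1.22 (-2.01 to -0.55) and CH-like cells one of -0.23. A single cell of Veh held 524 of 5287 UMIs, and without the top cell of each library Npy stood at -1.35. It was below 0 in sub-clusters 1, 2 and 4 (-1.50, -1.87 and -1.44), and sub-cluster 3 had 5 UMIs in Veh and 40 in Doxo.

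**Figure D5:**
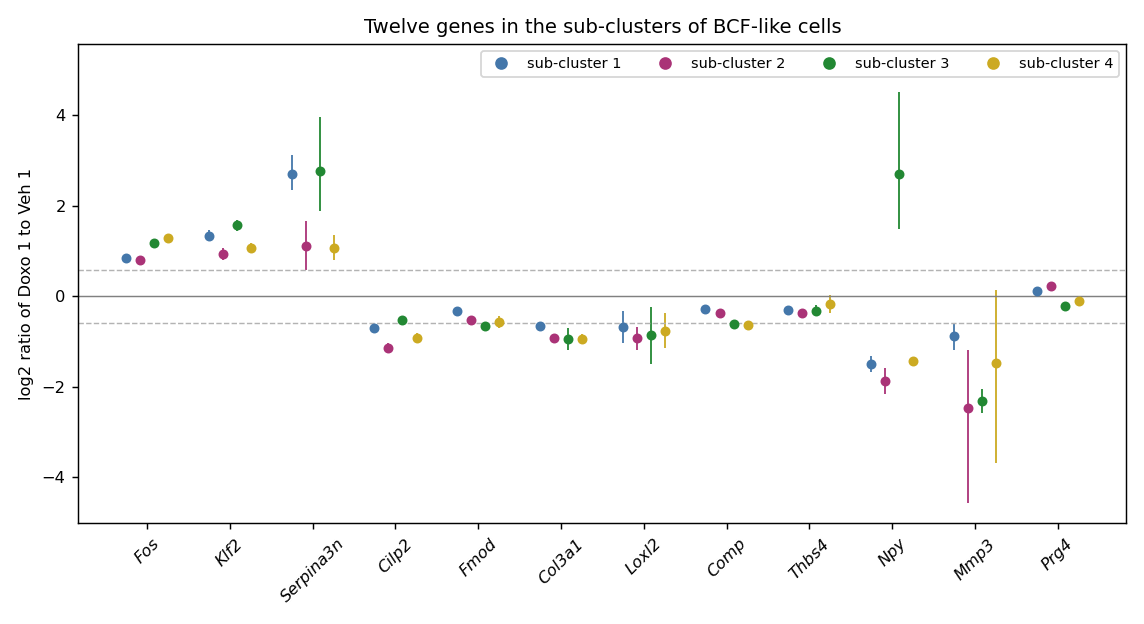
Log2 ratio of Doxo 1 to Veh 1 for 12 genes in each of the 4 sub-clusters of BCF-like cells, with 95% intervals for counting error and dashed lines at 1.5-fold. Fos, Klf2 and Serpina3n lie above 0 in all 4, and Cilp2, Fmod, Col3a1, Loxl2, Comp, Thbs4 and Mmp3 below 0 in all 4. Npy lies above 0 in sub-cluster 3 alone and Prg4 on both sides of 0.

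RNA of other cell types differed between the libraries in the same cells. The 7 erythroid markers summed to 174 CPM in BCF-like cells of Veh and 2.07 CPM in Doxo (525 and 3.40 CPM in all other cells), with 0 and 1 of them at 0 UMIs. The 5 lymphoid markers analysed summed to 29.9 and 3.03 CPM, with 0 and 1 at 0. The 7 neutrophil markers summed to 67.8 and 124 CPM, and 1 cell of Doxo held 80 of 306 S100a8 UMIs and 130 of 327 S100a9 UMIs. The 4 AEF markers summed to 320 and 124 CPM, the 5 endothelial markers to 18.9 and 7.72 CPM with 0 and 1 at 0, the 6 pericyte markers to 44.7 and 95.8 CPM and the 6 osteoblast markers to 2093 and 2649 CPM. The rule used 3 genes each of the AEF, endothelial and osteoblast markers, so these sums depend in part on the choice of cells. The 5 markers of Cxcl12-abundant reticular cells summed to 485 and 374 CPM (4738 and 7924 CPM in all other cells), a gap that the rule fixes in part, since it used Cxcl12, Adipoq and Lepr. Macrophage markers (7) summed to 9.82 and 13.5 CPM with 2 and 2 at 0, muscle markers (5) to 13.8 and 7.31 CPM with 0 and 2 at 0, Schwann cell markers (4) to 15.3 and 14.1 CPM with 0 and 2 at 0, osteoclast markers (5) to 216 and 138 CPM, and the 6 lining genes of the rule to 20.6 and 13.9 CPM with 1 and 0 at 0. The part of these markers in the ratios above was not tested.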

How the data were processed

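Single-cell RNA libraries from Veh and Doxo bones (1 each) were analysed. The authors deposited log2 values per gene and cell, which the submitters' processing notes tie to Cell Ranger, Partek and the GRCm38 (mm10) build. In these values logged CPM had been scaled again to a sum of 1000000 per cell and then turned to log2 with an offset. Inverting both rounds gave UMIs, and 99.94% of values of up to 50 UMIs came out whole within 0.05. A difference of mean deposited values is thus not a log2 ratio of CPM. The 20 symbols whose values did not come out whole were left out. The libraries held 2488 cells each, with 24859695 and 20792012 UMIs.

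BCF-like cells were chosen by the rule above, and their UMIs were summed per library. Log2 ratios of CPM took 0.5 UMI as a pseudocount and exact conditional binomial 95% intervals, over genes with at least 50 UMIs. With 1 library a group there was no test. Sub-clusters came from Leiden clustering (scanpy 1.11.5, leidenalg 0.10.2) with 2000 variable genes, 20 principal components, 15 neighbours and a resolution of 0.3. No doublet caller was run, and the methods read here name none. Named genes were those of 24 functional lists and the lists of other cell types, the 12 highest and 12 lowest ratios among genes with at least 100 UMIs and at least 0.5 times the level of other cells, and the 15 leading markers. The members and lists were chosen with earlier results of these data known. The alternatives covered the rule, cell filter, depth, scaling, pseudocount, low-count filter, single cells and mix of sub-clusters. Scripts ran in python 3.11.15 with pandas 2.3.3, scipy 1.17.1 and numpy 2.4.6 and were tested on simulated data. Gene positions came from GENCODE M21. Some genes that the rules name are not reported here.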

Additional observations from a re-analysis of the deposited data

Results flagged for a closer look

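In each result here the BCF-like cells and all other cells of the same 2 libraries had log2 ratios of Doxo to Veh of opposite sign, and the difference was not tested because each treatment is 1 library. The median of the interferon-stimulated genes was -0.32 in BCF-like cells and 0.52 in all other cells, which include AEF-like (-0.13) and CH-like (0.01) cells. Of its genes, Ifit1 stood at -2.66 and 2.01, Ifit3 at -1.78 and 1.10, Ifit3b at -3.48 and 1.08, and Isg15 at -1.27 and 1.09. A single cell of Veh held most of the Ifit3b, Ifit3 and Isg15 UMIs. Without the top cell of each library Ifit3b stood at -1.84.

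Col2a1 stood at 0.77 in BCF-like cells and -0.98 in all other cells. Cxcl12, a chemokine of marrow stroma, stood at -0.59 and 0.79. The rule used Cxcl12 to set other cells apart, and its ratio in BCF-like cells was -0.12 with cells thinned, -0.064 without the 5% of cells with most UMIs and 0.19 on the difference of mean deposited values. Vcam1, an adhesion molecule, stood at -0.77 and 0.72. Perp, a p53 target, stood at 0.59 and -1.46. Rgs5, a pericyte marker, stood at 4.03 and -0.71, and 254 of its 366 UMIs in Doxo sat in 1 cell. The neutrophil markers S100a8 and S100a9 stood at 1.31 and -3.61 and at 1.41 and -4.37, and 1 cell of Doxo held 80 of 306 and 130 of 327 of their UMIs.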

How the results depend on the processing

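On the difference of mean deposited values, a measure unlike the log2 ratio of CPM, 61 genes were higher and 1655 lower. There 3 lists had a median above 0, and 24 of 160 genes and 3 of 24 list medians changed sign. Among genes past 1.5-fold these were Slpi (-0.085), Gm42418 (0.028), Cxcl12 (0.19), Col10a1 (-0.11), Col1a1 (0.041), Col2a1 (-0.088), Cxcl10 (-0.42) and Sfrp2 (-0.10). Among cells with all 3 rule genes Col10a1 stood at -0.53 and Sfrp2 at -0.10. Without the 5% of cells with most UMIs Msmp stood at -0.35. Without the top cell Cxcl10 stood at -0.58 and Sfrp2 at -0.090. Centring on the median gave 10 lists above 0 in place of 6. A minimum of 10 UMIs gave 784 higher and 1629 lower genes, and fewer counts per gene are part of that setting's construction. Requiring all 3 rule genes left 14.3% and 11.3% of cells in Veh and Doxo, and the filter on genes and mitochondrial UMIs gave 35.6% and 38.2%. Without thinning, 90.4% and 83.4% of cells had at least 3 G2/M genes, and with thinning 3.10% and 2.70% had at least 5. Without thinning, Prg4 met Thbs4 in 73.6% and 65.3% of cells, Thbs4 met Tnmd in 13.4% and 9.66% and Thbs4 met Lgr6 in 14.2% and 15.7%. A resolution of 0.6 gave 10 sub-clusters in place of 4. The causes were not tested. Over all alternatives, 79 of 1855 values of single genes and 27 of 288 list medians changed sign, most of them from a ratio within 1.5-fold. The values with sub-clusters weighted alike and without single top cells were chosen after seeing the data. No paired analysis was possible because each group has replicate number 1 alone, and leaving out a library leaves none in its group. Depth limits genes of few UMIs.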

Other observations

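The 84 ribosomal protein genes measured in BCF-like cells summed to 118104 CPM in Veh and 138947 CPM in Doxo, with a median log2 ratio of 0.16, and 7 were higher and 0 lower. The 13 mitochondrially encoded genes summed to 23251 and 30027 CPM, with a median of 0.28.

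Transcripts of uncertain or repeated sequence were among the broadly seen genes with large ratios, a set chosen after the values were seen. Gm42418, which overlaps ribosomal RNA, was at 9925 CPM in Veh and 4113 CPM in Doxo, a ratio of -1.27. Lars2 had a ratio of -1.09. Tsix, which lies antisense to another long RNA, was at 24.1 and 69.4 CPM, a ratio of 1.52. The histone genes Hist1h1b, Hist1h1e and Hist1h4d had ratios of -3.07, -2.39 and -1.68, against -2.18, -1.54 and -1.07 in all other cells.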
